A study of Mus musculus with 28 samples.

Results

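Cytochromes P450 of families 1 to 3 are haem enzymes of the endoplasmic reticulum that oxidise drugs, steroids, fatty acids and other lipids, with electrons delivered by P450 oxidoreductase. The liver carries most of them, many in clusters of closely related neighbouring genes. Their transcription in hepatocytes is set by liver factors such as HNF4A, by receptors that sense foreign compounds, and by growth hormone, which makes several of them sex-biased in mice. The members described here were all gene symbols of the form Cyp1, Cyp2 or Cyp3 followed by a subfamily letter and a gene number, apart from Cyp2b9, Cyp2b10, Cyp2b13, Cyp2c70, Cyp2e1 and Cyp1a2. Of the 36072 symbols counted, 58 had this form, 6 were left out by name and 52 remained as members, in 15 subfamilies. All 52 were annotated as protein coding and all had at least 1 count.

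The question of the study was how loss of MIF-2, a cytokine encoded by Ddt, alters gene expression in the liver of atherosclerosis-prone mice. Livers came from 7 Apoe-/- mice and 7 Mif-2-/- Apoe-/- mice (double knockout mice), all female and fed a high-fat diet with added cholesterol for 12 weeks. Apoe, the apolipoprotein that clears remnant lipoproteins, was lacking in both groups, so no group had intact remnant clearance, and Mif-2 was deleted in the whole body and not in hepatocytes alone. The Apoe-/- line has a C57BL/6 background, and the double knockout line was bred from it and Mif-2+/- mice. RNA was read by prime-seq, which tags transcripts near their 3′ end, in 2 libraries per mouse that were summed.

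Total counts per mouse were 1336787 to 2715022. Levels are given as CPM, the usual depth-scaled count unit, with library sizes adjusted by TMM, a normalisation that assumes most genes do not differ. Ddt had 59.1 to 128 CPM in the Apoe-/- mice and 2.84 to 8.61 CPM in the double knockout mice, so all 14 mice matched their labels. The 7 hepatocyte markers summed to 36439 to 53001 CPM among Apoe-/- mice and 37062 to 58841 CPM among double knockout mice. The 4 skeletal muscle markers summed to 4191 CPM in double knockout mouse 3 and to 8.53 to 31.2 CPM in the other 13 mice. Fewer cells of a type and less RNA per cell cannot be told apart in whole liver.

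Of the 52 members, 29 had at least 10 counts per mouse on average, and the same 29 passed the filter on low counts and were tested. The other 23 held 0.543% of the members' summed CPM. All members together summed to 6420 ± 879 CPM among Apoe-/- mice and 6390 ± 1173 CPM among double knockout mice (SD, n = 7 each). The 11 tested Cyp2c genes lay on chromosome 19, the 5 Cyp3a genes on chromosome 5, the 6 Cyp2d genes on chromosome 15, the 2 Cyp2j genes on chromosome 4, and the 4 Cyp2a genes with Cyp2f2 on chromosome 7.

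Of sequence, 2 features are described beside these values, alike transcript ends and alike promoters. The part of promoter sequence in the levels was not tested. Reads from the last 300 bases of a transcript can fit more than 1 gene where paralogues are alike. Of the 29 tested members, 20 shared at least one 50-base word of that stretch with another annotated gene and 9 shared none. Cyp2c40 shared 57.9% of its words, Cyp2c67 45.4%, Cyp2c68 32.3% and Cyp2c69 23.1%, with each other. Cyp2a5 shared 37.1% and Cyp2a4 22.3%, with each other and, for Cyp2a5, a pseudogene. Cyp2a12 shared 5.18% with Cyp2a22, whereas Cyp2c29, Cyp2f2 and Cyp3a13 shared none. For members that share such words, it is uncertain which paralogue gave the reads.

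Promoters (250 bases before to 50 after the RefSeq start, build GRCm38.p6) were matched for 44 of the 52 members. Cyp2a4 and Cyp2a5, which both lie in the chromosome 7 cluster, had the most similar promoters of the pairs aligned within subfamilies, with 97.7% identity over 301 aligned positions. The first 210 bases of both windows are shown because the 2 genes had nearly the same upstream sequence but are compared separately below. Capitals mark letters that differ between the aligned windows, the first capital of Cyp2a4 being a base with no partner. Cyp2a4 is at chr7:26306942-26307151 and Cyp2a5 at chr7:26835089-26835298, both on the plus strand.
Cyp2a4: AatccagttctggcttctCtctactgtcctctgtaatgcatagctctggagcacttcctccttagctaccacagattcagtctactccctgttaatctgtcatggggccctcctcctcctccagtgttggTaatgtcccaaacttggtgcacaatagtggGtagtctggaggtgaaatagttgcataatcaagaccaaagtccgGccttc
Cyp2a5: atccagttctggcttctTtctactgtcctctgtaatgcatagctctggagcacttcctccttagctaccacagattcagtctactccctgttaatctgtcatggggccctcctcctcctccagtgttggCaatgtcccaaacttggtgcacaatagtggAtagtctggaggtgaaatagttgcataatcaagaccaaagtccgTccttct

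The letters CAAAGTCCA, a form of the site bound by HNF4A, occurred on either strand in 0.475% of 32817 RefSeq promoters. Of the 27 promoter windows of tested members, 5 held them, those of Cyp2c40, Cyp2c67, Cyp2c68, Cyp2c69 and Cyp3a11. The TATA box letters TATAAA occurred in 17 of the 27 windows and in 13.6% of all promoters, and the CEBP letters TTGCNNAA in 8 of the 27 and in 10.8%. The STAT letters TTCNNNGAA were in 0 of the 27 windows and in 8.29% of all promoters, and GCGTG, the core of the aryl hydrocarbon receptor site, in 1 of the 27 and in 32.4%. A match describes letters, not binding, and paralogues share letters by descent. The 60 bases around the HNF4A letters are shown for the 4 neighbouring Cyp2c genes because their transcripts stood out together in 1 mouse. Capitals mark the motif, and each line reads along the gene, on the minus strand, at chr19:39812825-39812884 (Cyp2c40), chr19:39649133-39649192 (Cyp2c67), chr19:39741144-39741203 (Cyp2c68) and chr19:39886810-39886869 (Cyp2c69).
Cyp2c40: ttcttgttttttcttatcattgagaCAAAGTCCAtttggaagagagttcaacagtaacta
Cyp2c67: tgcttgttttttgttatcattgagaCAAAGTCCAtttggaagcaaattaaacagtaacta
Cyp2c68: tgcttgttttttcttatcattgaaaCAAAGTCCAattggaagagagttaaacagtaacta
Cyp2c69: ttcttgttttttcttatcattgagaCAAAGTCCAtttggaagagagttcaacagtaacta

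Cyp3a11, the main drug- and steroid-oxidising CYP3A of mouse liver, had the highest mean level of all members. It was followed by Cyp2d26, Cyp2d10, Cyp2a12, Cyp2c50 and Cyp2c29, and the tested members reached down to Cyp2c39 at 5.97 CPM on average. These are 3′ tag levels, not scaled by transcript length. Cyp3a11 had 787, 916 and 1170 CPM (lowest, median and highest) among Apoe-/- mice and 490, 802 and 1167 CPM among double knockout mice. The groups overlapped, although 3 double knockout mice had less than all Apoe-/- mice, and the log2 fold change of double knockout over Apoe-/- was -0.24 (edgeR adjusted p = 0.594, SE 0.19).

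**Figure D1:**
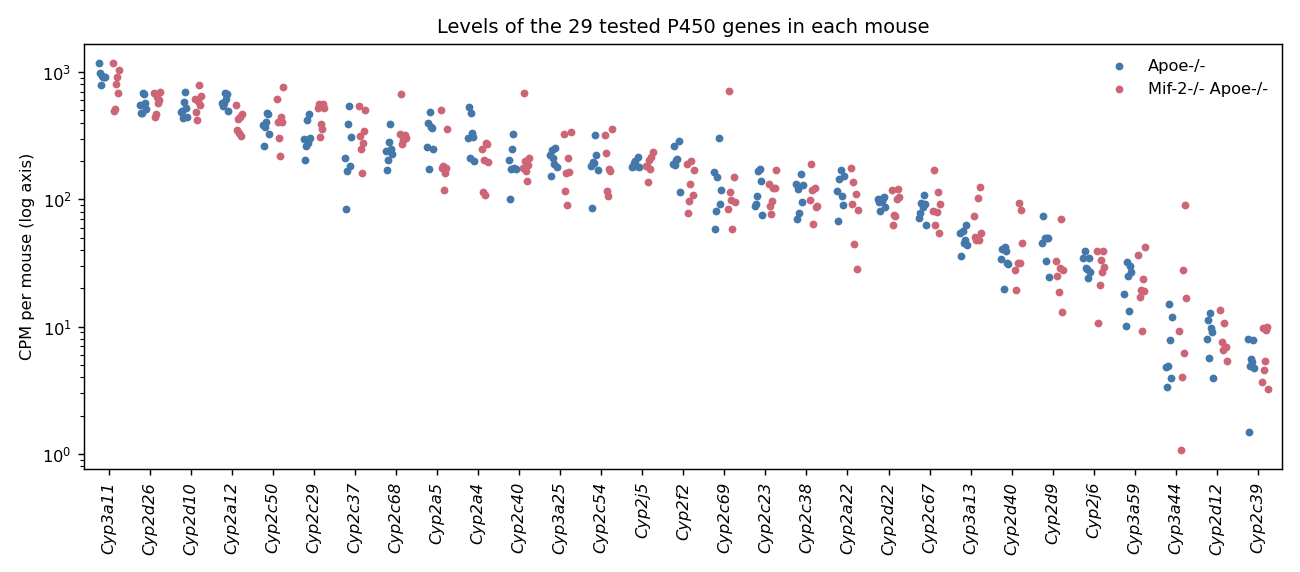
CPM of the 29 tested P450 genes in each mouse on a log axis, genes ordered by their mean over 14 mice, blue for 7 Apoe-/- mice and red for 7 Mif-2-/- Apoe-/- mice. Cyp3a11 is highest, at 490 to 1170 CPM, and single double knockout mice lie far from the rest in Cyp2c40, Cyp2c68, Cyp2c69 and Cyp3a44.

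By the edgeR quasi-likelihood test, 0 of the 29 members passed an adjusted p of 0.05, where 21 of 9684 genes (0.217%) did. The lowest adjusted p among members was 0.153, for Cyp2a12. At an unadjusted p below 0.05, 4 members were higher (13.8% of 29, against 7.37% of all genes tested) and 4 were lower (13.8%, against 5.49%). DESeq2 called 1 member, Cyp2a12, as lower (adjusted p = 0.0227), where it called 2.97% of the genes it adjusted. No member separated the groups fully, where 0.279% of genes did. The median log2 fold change was 0.06 over the members and 0.01 over all genes tested, and 22 of the 29 members had 95% intervals within 1 log2 unit either side of zero.

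**Figure D2:**
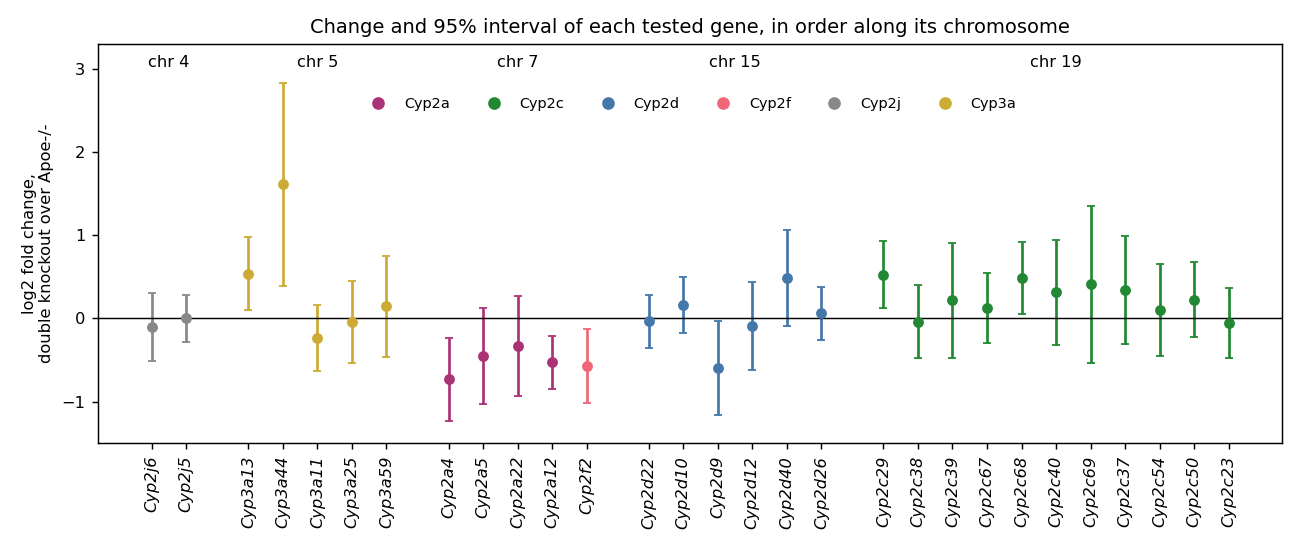
Log2 fold change of double knockout over Apoe-/- with its 95% interval (edgeR) for the 29 tested members, in order along each chromosome and coloured by subfamily. All 5 members on chromosome 7 lie below zero, 9 of the 11 on chromosome 19 lie above it, and Cyp3a44 has the widest interval.

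The Cyp2a genes hydroxylate steroids, bile acids and coumarin. In double knockout mice all 4 tested Cyp2a genes had negative log2 fold changes, from -0.33 to -0.73. Their summed level was 1090, 1427 and 1812 CPM (lowest, median and highest) among Apoe-/- mice and 602, 956 and 1478 CPM among double knockout mice, a ratio of means of 0.689. Double knockout mouse 1 alone lay above the Apoe-/- mean. The Cyp2a share of the members' CPM was 21.5 ± 3.23% and 14.9 ± 3.40% (SD, n = 7 each), and all 7 double knockout mice were below the Apoe-/- mean share. The 4 signs stayed negative in all 24 alternative fits, scalings included.

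Cyp2a12 (chr7:27029081-27037375, plus strand), which re-hydroxylates bile acids in mice, came nearest to a call. It had 491, 575 and 684 CPM among Apoe-/- mice and 312, 430 and 552 CPM among double knockout mice. Of the 7 double knockout mice 6 had less than all Apoe-/- mice, and mouse 1, at 552 CPM, lay within their range. The log2 fold change was -0.53 (edgeR adjusted p = 0.153, SE 0.15), and the two-sided exact permutation test on CPM gave p = 0.00175, unadjusted. That test was run for all 52 members, and 4 of the 29 tested members had p below 0.05 by it, Cyp2a12, Cyp2a4, Cyp2c29 and Cyp2f2. Among the members under 10 counts, Cyp2r1 (exact permutation p = 0.0117) and Cyp2c65 (exact permutation p = 0.0425) did as well, both unadjusted. The share of all genes below 0.05 by this test is not given, so these counts have no background. Leaving out any 1 mouse moved the log2 fold change of Cyp2a12 between -0.61 and -0.47.

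Cyp2a4 (chr7:26307169-26315088, plus strand) encodes a steroid hydroxylase that is female-biased in mouse liver. It had 201, 307 and 529 CPM among Apoe-/- mice and 109, 204 and 277 CPM among double knockout mice, and 3 double knockout mice had less than all Apoe-/- mice. The log2 fold change was -0.73 (edgeR adjusted p = 0.203, SE 0.24; exact permutation p = 0.0274, unadjusted). With no filter on low counts it was -0.71 with an adjusted p of 0.0392, where 0.954% of 36072 symbols were called. Its paralogue Cyp2a5, coumarin hydroxylase, in the same cluster, had 173, 360 and 482 CPM and 119, 178 and 502 CPM. Here double knockout mouse 1 was the highest of all 14 mice, and the log2 fold change was -0.45 (edgeR adjusted p = 0.489, SE 0.28). Cyp2a22, the remaining member, had 67.2 to 170 CPM and 28.3 to 175 CPM (-0.33, SE 0.29).

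Cyp2f2 (chr7:27119909-27133660, plus strand), which oxidises naphthalene and is periportal in the liver lobule, had 114, 203 and 286 CPM among Apoe-/- mice and 78.6, 132 and 200 CPM among double knockout mice. All 7 double knockout mice were below the Apoe-/- mean, and 3 below every Apoe-/- mouse. The log2 fold change was -0.57 (edgeR adjusted p = 0.260, SE 0.21; exact permutation p = 0.0286, unadjusted). The 6 periportal markers summed to 962 to 1412 CPM among Apoe-/- mice and 1335 to 2128 CPM among double knockout mice, with 4 of 6 higher at an unadjusted p below 0.05, 0 called by edgeR and 2, Hal and Cps1, called by DESeq2. The 5 tested pericentral markers had 0 at that p. All 5 had negative log2 fold changes (median -0.10), and all 6 periportal markers had positive ones (median 0.56). The part of these markers in the result was not tested. On the same chromosome, the non-members Cyp2b9 and Cyp2b13 had log2 fold changes of 3.00 and 2.90 (edgeR adjusted p = 0.0235 and 0.0107).

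**Figure D3:**
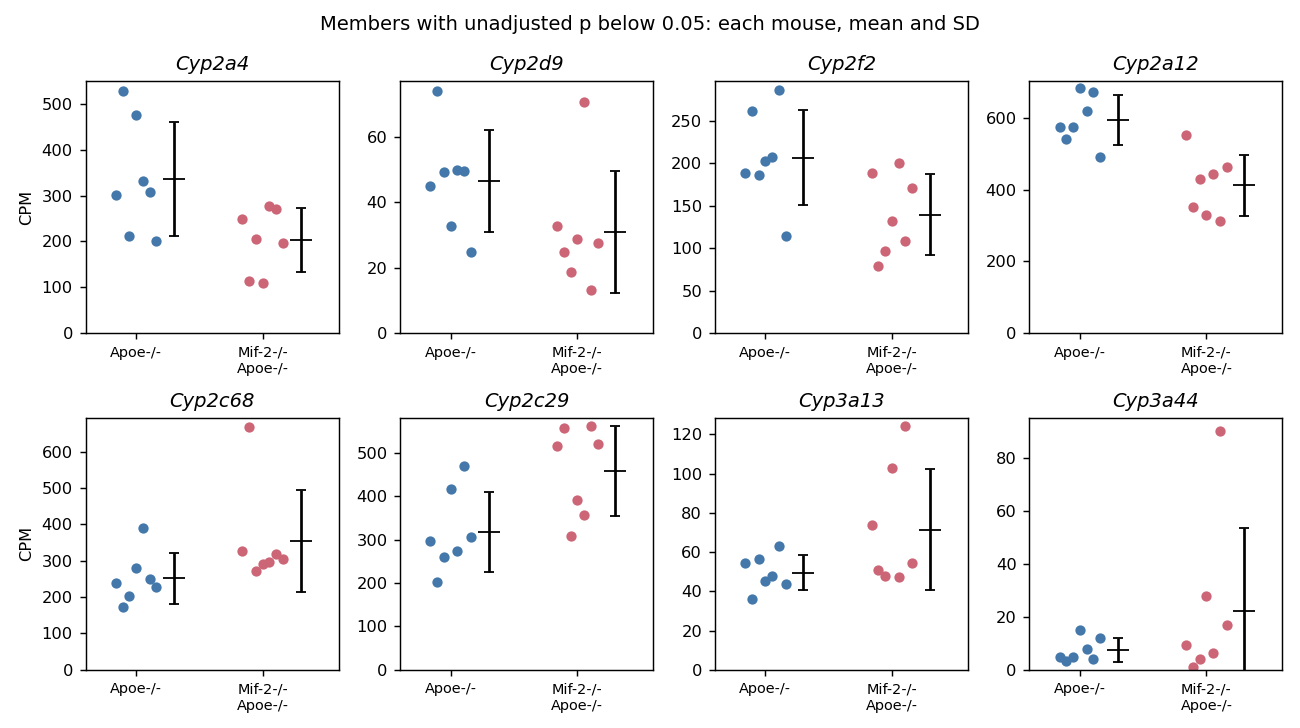
CPM of the 8 members with an unadjusted p below 0.05, 1 point per mouse, with the mean and SD beside each group of 7 mice (the SD bar of Cyp3a44 is cut at 0). Cyp2a12 has 6 of 7 double knockout mice below all Apoe-/- mice, whereas Cyp2c68 and Cyp3a44 each have 1 double knockout mouse far above the others.

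The Cyp2c genes of mice include arachidonic acid epoxygenases. Their 11 tested genes had positive log2 fold changes in 9 cases, and the summed level of the 14 members was 1211, 1985 and 3079 CPM among Apoe-/- mice and 1683, 2411 and 4037 CPM among double knockout mice (ratio of means 1.24). With library totals in place of TMM, 7 of the 11 were positive, and the log2 ratio of the mean sums was 0.16, against 0.31 with TMM. Without double knockout mouse 2, 6 were positive and the ratio of sums was 1.12.

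Cyp2c29 (chr19:39269405-39330713, plus strand), an epoxygenase expressed around the central vein, had 202, 297 and 469 CPM among Apoe-/- mice and 308, 517 and 561 CPM among double knockout mice. Of the double knockout mice 6 were above the Apoe-/- mean and 4 above every Apoe-/- mouse. The log2 fold change was 0.53 (edgeR adjusted p = 0.245, SE 0.19; exact permutation p = 0.0245, unadjusted), and it ranged from 0.44 to 0.65 when 1 mouse was left out. Cyp2c37, Cyp2c50 and Cyp2c54, also epoxygenases and pericentral, varied widely in both groups. Cyp2c37 had 84.3, 211 and 540 CPM among Apoe-/- mice and 162, 316 and 542 CPM among double knockout mice, with a log2 fold change of 0.34 (SE 0.31). Cyp2c50 had 263, 382 and 480 CPM and 219, 405 and 758 CPM, with a log2 fold change of 0.23 (SE 0.22). Double knockout mice 1 and 7 had the highest Cyp2c37 levels of their group, 542 and 502 CPM, and Apoe-/- mouse 5 had 540.4 CPM.

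On the TMM-adjusted scale, Cyp2c40, Cyp2c67, Cyp2c68 and Cyp2c69, the 4 genes with the HNF4A letters shown above, were all highest in double knockout mouse 2. Cyp2c40 reached 685 CPM there and 101 to 326 CPM in the other 13 mice. Cyp2c69 reached 706 CPM against 58.1 to 303 CPM, Cyp2c68 669 CPM against 171 to 389 CPM, and Cyp2c67 171 CPM against 54.4 to 114 CPM. Relative to the median of 14 mice these levels were unequal, 6.60-fold for Cyp2c69, 3.77-fold for Cyp2c40, 2.35-fold for Cyp2c68 and 2.04-fold for Cyp2c67. The size of these folds depends on the scaling, as the TMM adjustment raised the values of that mouse. Its Cyp2c69 level of 706 CPM compares with 477 and 511 CPM in its 2 libraries by total counts. Scaled by total counts alone, both libraries of that mouse were above the other 26 for Cyp2c69 (477 and 511 against 59.7 to 334 CPM). The same held for Cyp2c40 (462 and 497 against 113 to 373 CPM) and Cyp2c68 (447 and 477 against 185 to 439 CPM). It did not hold for Cyp2c67, with 108 and 135 against 50.4 to 130 CPM. Double knockout mouse 5 had 109 and 130 CPM of Cyp2c67 on that scale.

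The group difference in the sum of the 4 genes rested on double knockout mouse 2. Summed, they had 409, 610 and 1127 CPM in Apoe-/- mice, 2231 CPM in double knockout mouse 2 and 606 to 709 CPM in the other 6 double knockout mice. Without mouse 2 the ratio of double knockout to Apoe-/- means was 0.981, against 1.31 with it. The log2 fold change of Cyp2c40 went from 0.32 to -0.16, that of Cyp2c69 from 0.41 to -0.47, and that of Cyp2c67 from 0.13 to -0.07. Cyp2c68, for which all 7 double knockout mice were above the Apoe-/- mean, had a log2 fold change of 0.49 (edgeR adjusted p = 0.320, SE 0.21; exact permutation p = 0.0624, unadjusted), or 0.26 without mouse 2. Apoe-/- mouse 5 had the highest sum of its group, 1127 CPM. Without it the log2 fold changes were 0.74 for Cyp2c69, 0.48 for Cyp2c40 and 0.63 for Cyp2c68. Which of the 4 gave the reads is uncertain, given their shared transcript ends. Double knockout mouse 2 had the lowest total count of the 14, and it also had the lowest value of 7 of the 29 members, Cyp3a11 at 490 CPM among them.

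**Figure D4:**
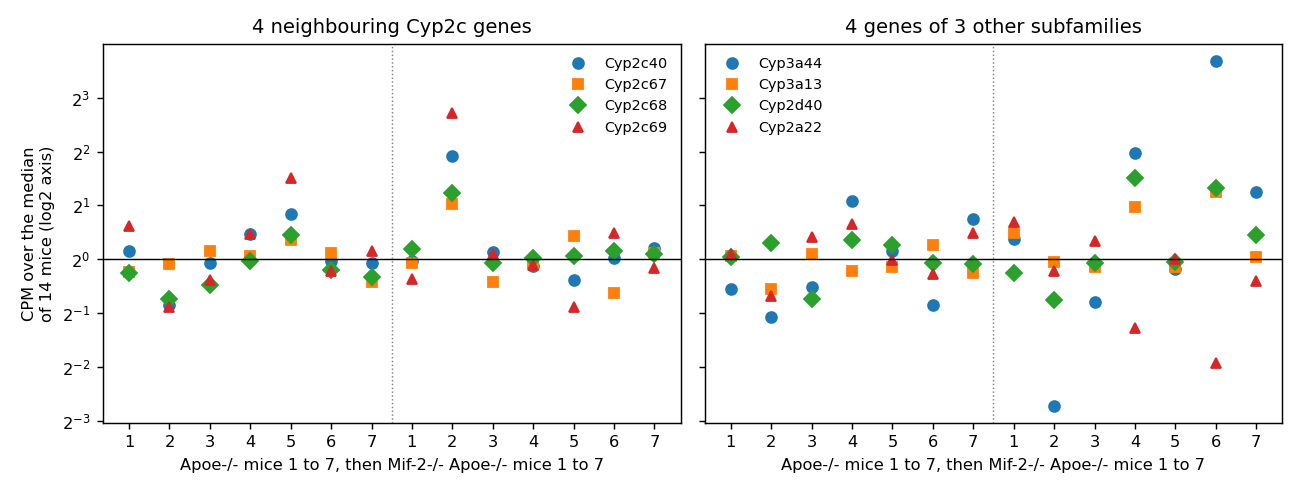
CPM of single genes divided by their median over 14 mice, on a log2 axis, for each mouse. Left, 4 neighbouring Cyp2c genes, all highest in double knockout mouse 2 on the TMM-adjusted scale (2.04- to 6.60-fold of the median). Right, genes grouped after their values were seen, with Cyp3a44, Cyp3a13 and Cyp2d40 highest in double knockout mice 4 and 6, where Cyp2a22 is lowest.

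Some other members had extreme values in double knockout mice 4 and 6, and were grouped after these values were seen. Cyp3a44, a female-biased CYP3A of mouse liver (chr5:145773983-145805874, minus strand), had 27.7 and 90.4 CPM there, and 1.08 to 16.8 CPM in the other 12 mice. Cyp3a13 had 103 and 124 CPM against 35.8 to 73.8 CPM. Cyp2d40, on another chromosome, had 94.1 and 81.9 CPM against 19.4 to 45.0 CPM. Cyp2a22 had its 2 lowest values in the same mice, 44.8 and 28.3 CPM against 67.2 to 175 CPM. The 2 mice also had the highest summed Kupffer cell markers, 923 and 955 CPM against 443 to 692 CPM, and the part of these markers was not tested.

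For Cyp3a44 the groups had 3.36, 4.92 and 14.9 CPM and 1.08, 9.22 and 90.4 CPM. It had the largest log2 fold change of the tested members, 1.61 (edgeR adjusted p = 0.247, SE 0.59; exact permutation p = 0.223, unadjusted), and the widest spread, with a biological coefficient of variation of 0.715. Without double knockout mouse 6 the log2 fold change was 0.73 (edgeR adjusted p = 0.575). With no filter on low counts the log2 fold change was 1.68 (SE 0.23) and the edgeR adjusted p was 8.25e-11. That fit called 0.954% of 36072 symbols, and the cause of its smaller SE was not tested. The call rests on the filter, since the groups overlapped and the permutation test gave the p above. Cyp3a44 shared 23.1% of its transcript-end words with Cyp3a41a, Cyp3a41b and a pseudogene. Cyp3a13 had 35.8, 47.7 and 63.0 CPM and 47.5, 54.2 and 124 CPM, with a log2 fold change of 0.54 (edgeR adjusted p = 0.280, SE 0.21; exact permutation p = 0.0944, unadjusted), and 0.36 without mouse 6. The 7 Cyp3a members summed to 1233 ± 115 CPM among Apoe-/- mice and 1122 ± 348 CPM among double knockout mice.

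Cyp2d genes oxidise many drugs and, in mice, testosterone. Their 6 tested genes were split, 3 positive and 3 negative, and their summed level was 1272 ± 182 and 1354 ± 228 CPM (ratio of means 1.06). Cyp2d26 had 475, 552 and 679 CPM among Apoe-/- mice and 439, 600 and 699 CPM among double knockout mice, with a log2 fold change of 0.06 (SE 0.15), which was -0.03 with library totals as the scaling. Cyp2d10 had 433, 493 and 697 CPM and 420, 587 and 788 CPM (0.16, SE 0.16). Cyp2d22 had 81.6 to 105 CPM and 62.5 to 121 CPM, with a log2 fold change of -0.03 and a 95% interval from -0.35 to 0.29. Cyp2d9, a male-biased testosterone hydroxylase, had 24.7, 49.2 and 73.9 CPM and 13.0, 27.6 and 70.6 CPM. Its log2 fold change was -0.60 (edgeR adjusted p = 0.364, SE 0.27; exact permutation p = 0.122, unadjusted), and 6 of 7 double knockout mice were below the Apoe-/- mean. Double knockout mouse 5, at 70.6 CPM, was the exception, and without it the value was -0.94.

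Cyp2j5, a liver and kidney epoxygenase, was the steadiest member, with a biological coefficient of variation of 0.193. It had 179, 182 and 216 CPM among Apoe-/- mice and 138, 183 and 236 CPM among double knockout mice. Its log2 fold change of 0.00 had a 95% interval from -0.28 to 0.28. Cyp2j6 had 24.0 to 39.6 and 10.8 to 39.3 CPM (-0.10, SE 0.20).

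**Figure D5:**
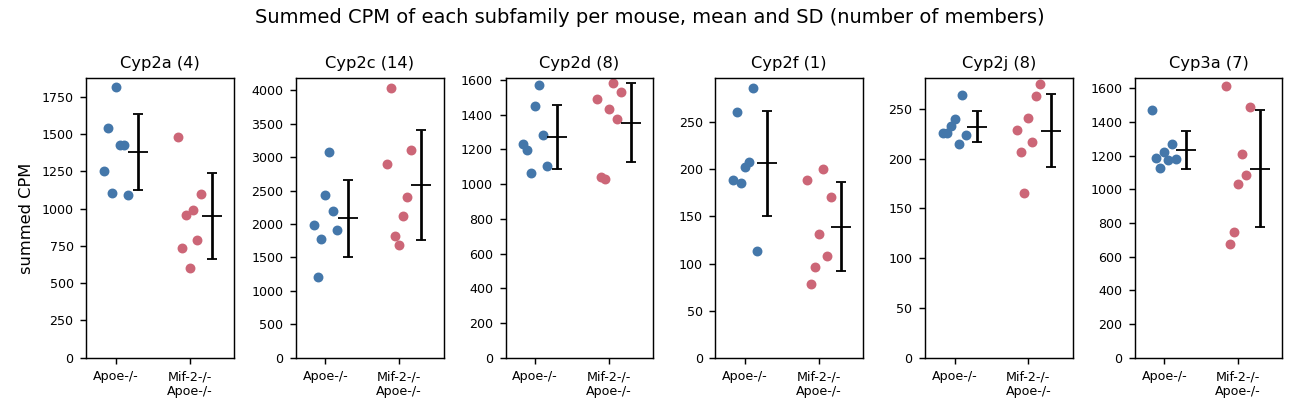
Summed CPM of the 6 subfamilies with a tested member, 1 point per mouse, with the mean and SD of 7 mice per group and the number of members in brackets. The Cyp2a sum is 1379 CPM on average among Apoe-/- mice and 950.2 CPM among double knockout mice, the Cyp2c sum has 1 double knockout mouse at 4037 CPM, and the groups overlap in all 6 sums.

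The 23 members under 10 counts per mouse reached at most 10.6 CPM in any mouse. Cyp1a1, which the aryl hydrocarbon receptor induces strongly, had 7 counts in the 7 Apoe-/- mice together and 4 in the double knockout mice, with at most 2 in any mouse. Cyp1b1, another target of that receptor, had 25 and 16 counts. Cyp2r1, a vitamin D hydroxylase, had 2.86 ± 1.33 and 4.98 ± 1.46 CPM (SD, n = 7 each), and all 7 double knockout mice were above the Apoe-/- mean. In the fit with no filter its log2 fold change was 0.79 (edgeR adjusted p = 0.479, SE 0.38). At an unadjusted p below 0.05 that fit had 1 of the 23 higher, Cyp2r1, and 2 lower, and called 0. The 2 were Cyp2b23, with 5 counts in the Apoe-/- mice together and 0 in the double knockout mice, and Cyp2t4, with 4 and 0. The share of all symbols below that p in that fit is not given. The rest had no unadjusted p below 0.05 in that fit, although Cyp2c65, with 11 and 4 counts, had an exact permutation p of 0.0425, unadjusted. Counts this low limit what could be detected.

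The remaining tested members had log2 fold changes between -0.09 and 0.22, none with an unadjusted p below 0.05. In the Cyp2c cluster, Cyp2c54 had 85.1 to 320.0 CPM among Apoe-/- mice and 107 to 359 CPM among double knockout mice. Cyp2c23 had 75.5 to 174 and 76.0 to 170.1 CPM, and Cyp2c38 had 70.2 to 157 and 63.9 to 188 CPM. Cyp2c39 was the least abundant, at 1.49 to 7.94 and 3.25 to 9.96 CPM. In the Cyp3a cluster the range of Cyp3a25 was wider among double knockout mice, 89.9 to 340 CPM, than among Apoe-/- mice, 152 to 252 CPM. Cyp3a59 had 10.1 to 32.4 and 9.24 to 42.3 CPM, and Cyp2d12 had 3.98 to 12.7 and 5.42 to 13.5 CPM. In each of these the groups overlapped.

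By textbook sex bias and lobule position, some tested members fell into small lists. The female-biased list had 6 tested genes, among them Cyp3a41a and Cyp3a41b, which are not members. Of the 6, 3 had positive and 3 negative log2 fold changes, with a median of -0.02, against 0.01 over all genes tested. The tested members in it were Cyp2a4 (-0.73), Cyp2c40 (0.32), Cyp2c69 (0.41) and Cyp3a44 (1.61). Of 6 tested pericentral members 4 were positive and 2 negative, with a median of 0.16. The single members of the other lists, male-biased Cyp2d9 and periportal Cyp2f2, were both negative.

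Median spread between mice was larger over the members than over all genes. The median biological coefficient of variation was 0.288 over the 29 members and 0.206 over all genes tested. Among genes with at least 50 CPM it was 0.284 over 22 members and 0.220 over 1833 genes. Paired libraries varied less than mice did in 28 of the 29 members, with median SDs of 0.14 within a mouse and 0.50 between mice on the log2 scale. These SDs are of levels scaled by total counts alone, without the TMM adjustment.

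The P450 electron donor and haem list had 15 tested genes, with 0 called by edgeR and 2 higher at an unadjusted p below 0.05. Por, the P450 oxidoreductase, had 253 ± 58.8 and 392 ± 125 CPM, with a log2 fold change of 0.63 (edgeR adjusted p = 0.192, SE 0.20), and DESeq2 called it as higher (adjusted p = 0.0426), the only gene of the list that it called. Fech, which inserts iron into haem, had a log2 fold change of 0.51 (edgeR adjusted p = 0.203, SE 0.17). Alas1, which starts haem synthesis, had 0.00 (SE 0.24). Of 21 tested regulators 0 were called by edgeR and 0 by DESeq2, which gave 13 of them an adjusted p, and 1 was lower at an unadjusted p below 0.05. Ppara, the fatty acid receptor, had a log2 fold change of -0.69 (edgeR adjusted p = 0.188, SE 0.22), while Hnf4a had 0.01 (SE 0.17). The xenobiotic receptors Nr1i3 and Nr1i2 had -0.28 (SE 0.17) and -0.14 (SE 0.14).

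Of the other P450 families, 18 genes were tested and 0 called by edgeR, or by DESeq2 among the 10 to which it gave an adjusted p, with 2 higher and 2 lower at an unadjusted p below 0.05 and a median log2 fold change of -0.06. Of 39 tested conjugation genes, edgeR called 1 as lower, Gstt3, a glutathione transferase, and DESeq2 called 0 of the 28 to which it gave an adjusted p. At an unadjusted p below 0.05 by edgeR, 0 were higher and 5 lower, Gstt3, Gstm3, Gstm2, Gsta2 and Sult3a1. Log2 fold changes were positive in 13 and negative in 26, with a median of -0.15. A list of 11 genes for tissue and RNA handling, early-response genes and nuclear RNAs, had 8 tested, of which 7 had positive log2 fold changes (median 0.78). The early-response genes Fos, Jun, Junb, Egr1 and Ier2 were higher at an unadjusted p below 0.05, with 0 called by edgeR and Junb called by DESeq2. The summed level of the list was 2229 to 6680 CPM (mean 3585) in the controls and 1277 to 5796 CPM (mean 2904) in the double knockout group, so its sum and its median differed in sign. Their part in the members' values was not tested.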

How the data were processed

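Liver RNA of 14 mice was read by prime-seq. The authors made counts with the zUMIs pipeline, and the deposited values are whole-number counts per gene symbol with no normalization, 541651 to 1531192 per library; the labels name build mm10. Annotation release, use of strand, counting of intronic reads and whether molecular identifiers were counted are not given in the sources used here. The study's model held RNA integrity as a covariate, whose values were not used here.

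The 2 libraries of each mouse were summed. Genes passing filterByExpr were tested with edgeR 4.0.16 (R 4.3.3, TMM, quasi-likelihood F test, two-sided, Benjamini-Hochberg over 9684 genes), and with DESeq2 1.42.0 as an alternative. The fitting script was tested on simulated counts. Exact permutation tests ran over 3432 assignments, the smallest possible p being 0.000583. Members and lists were chosen with earlier results of these data known. Named were members with an unadjusted p below 0.05, the 10 highest, the highest of each tested subfamily, Cyp1a1, Cyp1b1, Cyp2a4, Cyp2a12, Cyp2d9, Cyp2d22, Cyp2r1, Cyp3a11 and those of highest and lowest spread. Cyp2c40, Cyp2c54, Cyp2c67, Cyp2c69, Cyp2c39, Cyp2d40, Cyp2a22 and Cyp2j6 were named after their values were seen. Gene positions came from GENCODE M21 on mm10, and promoters from RefSeq. Alternatives were other scalings, filters, libraries, a replicate block and leaving out each mouse.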

Additional observations from a re-analysis of the deposited data

Results flagged for a closer look

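The highest or lowest mouse of a group was flagged where its gap to the next mouse, as a share of the range of the 7, exceeded Dixon's critical value. Of 72 groups of values examined (the 29 tested members and 7 sums, in each genotype), 6 were flagged. For independent, normally distributed values chance alone flags about 5%. The values here are untransformed CPM and the sums hold the same members, so that share is only a rough guide.

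Of the 6, 5 were in double knockout mice. Mouse 2 stood apart in Cyp2c40 at 685 CPM (next mouse 211 CPM), in Cyp2c68 at 669 CPM (next 327 CPM) and in Cyp2c69 at 706 CPM (next 150 CPM). These 3 genes share transcript-end sequence, so they are not independent of each other. Mouse 6 stood apart in Cyp3a44 at 90.4 CPM (next 27.7 CPM), and mouse 5 in Cyp2d9 at 70.6 CPM (next 32.6 CPM). Among Apoe-/- mice, mouse 1 stood apart in the summed Cyp3a level at 1474 CPM (next 1267 CPM).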

How the results depend on the processing

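Members called stayed at 0 in each direction in all 14 fits that left out 1 mouse, with either library alone, under the other scalings, with at least 10 counts per mouse and with a replicate block. Exceptions were DESeq2, on the same counts and with the study's gene filter (1 lower each, Cyp2a12), and edgeR with no filter (1 higher, Cyp3a44, and 1 lower, Cyp2a4); the cause was not tested. Members higher at an unadjusted p below 0.05, 4 in the reported fit, numbered 2 with library totals, 0 with the first library alone (by title; column suffixes disagree with titles in 4 mice) and 2 to 5 leaving out 1 mouse (2 without double knockout mouse 6). Those lower, also 4, numbered 7 with no filter and 3 to 4 leaving out 1 mouse. Replicate numbers do not pair the mice: 2 of 7 equal-numbered pairs correlated above 0.1 (-0.43 to 0.15) and 2 of 14 mice matched best to their own number. With the replicate block 3 members were higher and 4 lower at that p. Of the 16 tested members named by the rule, 13 kept their sign in every alternative run, the 8 with an unadjusted p below 0.05 among them; Cyp3a44 was under the filter in the 2 single-library fits. Cyp2j5 turned to -0.10 with library totals, -0.075 with the first library and -0.012 with the replicate block, and ranged from -0.053 to 0.069 leaving out 1 mouse. Cyp2d22 turned to 0.0056 with DESeq2, 0.0070 with its size factors in edgeR, 0.0066 with no filter and 0.019 with the duplicate library, and ranged from -0.10 to 0.043. Cyp2d26 turned to -0.035 with library totals. Depth limits the 23 members under 10 counts per mouse.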
